A study of Homo sapiens with 9 samples.

Results

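DKK1 encodes a secreted inhibitor of canonical Wnt signaling. Its mRNA and those of 9 further genes of the pathway (LRP6, RNF43, ZNRF3, AXIN1, AXIN2, APC, CTNNB1, TCF7 and TCF7L2) were followed in HCT116 cells with and without a catalytic mutation of HUWE1. These genes were picked by symbol from the count table, and all 10 of them have a row among its 11350 genes. DKK1 was picked because its level was low in HUWE1-CS cells, so its values in that line are given as a description without a test. The question was whether the other genes moved with it. To answer it, role lists of 157 Wnt genes other than DKK1 were read as well. Of these, 96 are in the table, the 9 members and 87 further genes. The members and the lists were chosen with earlier results of these data known.

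HCT116 is a human colorectal carcinoma cell line. HUWE1 is a large ubiquitin ligase of the HECT family. Untreated cells of 3 lines were compared: HUWE1-P (parental), HUWE1-WT, in which the stretch of the endogenous gene around the catalytic cysteine was replaced by a copy that keeps the cysteine, and HUWE1-CS, whose copy codes for serine in its place. Both edited lines carry a blasticidin resistance gene behind HUWE1 and were grown from single cell clones, and how many clones stand behind the libraries is not given in the sources used here. A difference between HUWE1-CS and the other lines therefore cannot be told apart from a difference between clones. Polyadenylated RNA of 3 replicates per line, biological ones by the study's account, was sequenced.

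Canonical Wnt ligands bind Frizzled receptors and the co-receptors LRP5 and LRP6 and thereby stop the destruction complex, in which AXIN and APC hold β-catenin (CTNNB1) for phosphorylation and degradation. Stabilized β-catenin enters the nucleus and activates genes bound by TCF factors. Among these are feedback inhibitors of the pathway: AXIN2, the receptor-directed ubiquitin ligases RNF43 and ZNRF3, and DKK1, which binds LRP5 and LRP6 from outside the cell together with the KREMEN receptors. HCT116 cells carry a mutated CTNNB1 allele whose product escapes phosphorylation, so the pathway is active in them downstream of the destruction complex.

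The libraries held between 1610984 and 2060349 counts, so the floor of 3 counts is 1.45 to 1.86 in CPM, the count scaled to a common library size. Such floors cover counting error only. Levels below are CPM after TMM normalization. The quasi-likelihood test of edgeR was run over all 9 libraries. A gene counts as called where its p, adjusted by Benjamini-Hochberg (FDR), did not exceed 0.01. HUWE1 mRNA lay between 522 and 561 CPM in the HUWE1-P libraries, between 453 and 498 CPM in the HUWE1-WT libraries and between 323 and 345 CPM in the HUWE1-CS libraries, and was called lower in the latter against HUWE1-P cells (log2 fold change -0.69, adjusted p = 1.06e-15, edgeR) and against HUWE1-WT cells (-0.48, adjusted p = 4.68e-09, edgeR). The exchanged residue itself cannot be read from counts per gene. Of the epithelial markers, EPCAM, KRT8, KRT18, KRT19, CDH1 and CDX2 were in the table and VIL1 was not. Of 12 markers of blood, endothelial and mesenchymal cells, 3 were in the table (ACTA2, CD68 and COL1A1), with line means from 1.97 to 22.2 CPM. In HUWE1-CS against HUWE1-P cells KRT8 (-0.32, adjusted p = 6.04e-07, edgeR), KRT18 (-0.30, adjusted p = 8.04e-05, edgeR) and COL1A1 (-0.96, adjusted p = 9.01e-04, edgeR) were called lower, and EPCAM (0.28, adjusted p = 4.97e-04, edgeR), CDH1 and ACTA2 (1, 6 and 4 against 15, 15 and 13 counts) higher. ACTA2 held 8, 10 and 7 counts in the HUWE1-WT libraries and was not called in HUWE1-CS against HUWE1-WT cells (0.80, adjusted p = 0.121, edgeR). Its single count in HUWE1-P replicate 1 lay below the floor. The other markers named as called were called in the same direction against HUWE1-WT cells. The part of these markers in the results below was not tested.

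DKK1 (Entrez identifier 22943) lies on chromosome 10 from 54074041 to 54077802 on the plus strand (GRCh37). Its level was 562, 617 and 559 CPM in the HUWE1-P libraries and 557, 610 and 579 CPM in the HUWE1-WT libraries. In the HUWE1-CS libraries it was 113, 118 and 123 CPM. The control lines thus lay within the same range, and each HUWE1-CS library lay far below all 6 control libraries. Means were 579 ± 32.8 CPM for HUWE1-P, 582 ± 26.3 CPM for HUWE1-WT and 118 ± 4.58 CPM for HUWE1-CS (SD, n = 3 each). The ratio of means was 4.91 between HUWE1-P and HUWE1-CS cells and 4.93 between HUWE1-WT and HUWE1-CS cells. HUWE1-WT against HUWE1-P cells, a comparison that did not enter the choice of the gene, gave a log2 fold change of 0.01 (95% interval -0.12 to 0.13, adjusted p = 0.993, edgeR). With any library left out, the log2 fold change of DKK1 in HUWE1-CS against HUWE1-P cells was between -2.32 and -2.25, a description as well. The annotated antisense gene PRKG1-AS1 overlaps DKK1, and without a stated use of strand the reads of both cannot be told apart.

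The stretch before the start of DKK1 is shown because DKK1 is itself a gene bound by TCF factors. Among the 7 members with such a window at hand, it alone has the TCF/LEF core there. The 250 bases before the start, taken from RefSeq and found once in GRCh37 at chr10:54073791-54074040 (plus strand), read as follows, with matches to the TCF/LEF core CTTTGA on either strand and to the TATA box TATAAA in capitals.
DKK1: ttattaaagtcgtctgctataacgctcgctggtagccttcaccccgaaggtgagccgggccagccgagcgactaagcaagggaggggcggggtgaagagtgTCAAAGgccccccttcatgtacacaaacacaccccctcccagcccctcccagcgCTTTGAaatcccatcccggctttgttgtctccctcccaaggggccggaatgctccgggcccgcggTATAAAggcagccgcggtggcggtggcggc
The TCF/LEF core matched at bases 149 to 144 before the start (minus strand) and at bases 95 to 90 (plus strand), and the TATA box at bases 30 to 25. The AP-1 motif TGANTCA had no match there. Windows of 7 members were at hand, 12 in all since some genes have several starts, and CTTTGA was found only in that of DKK1. AXIN2, LRP6 and ZNRF3 had no window. Over all 35116 windows of the same length, 11.2% held CTTTGA, 10.7% TATAAA and 6.57% TGANTCA. Among the 13209 windows of genes in the count table the shares were 7.28%, 5.28% and 4.09%. Of the other members, TCF7 had a TATAAA match and RNF43, before an inner start, a TGANTCA match. Such matches are descriptions of the letters, not of binding.

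**Figure D1:**
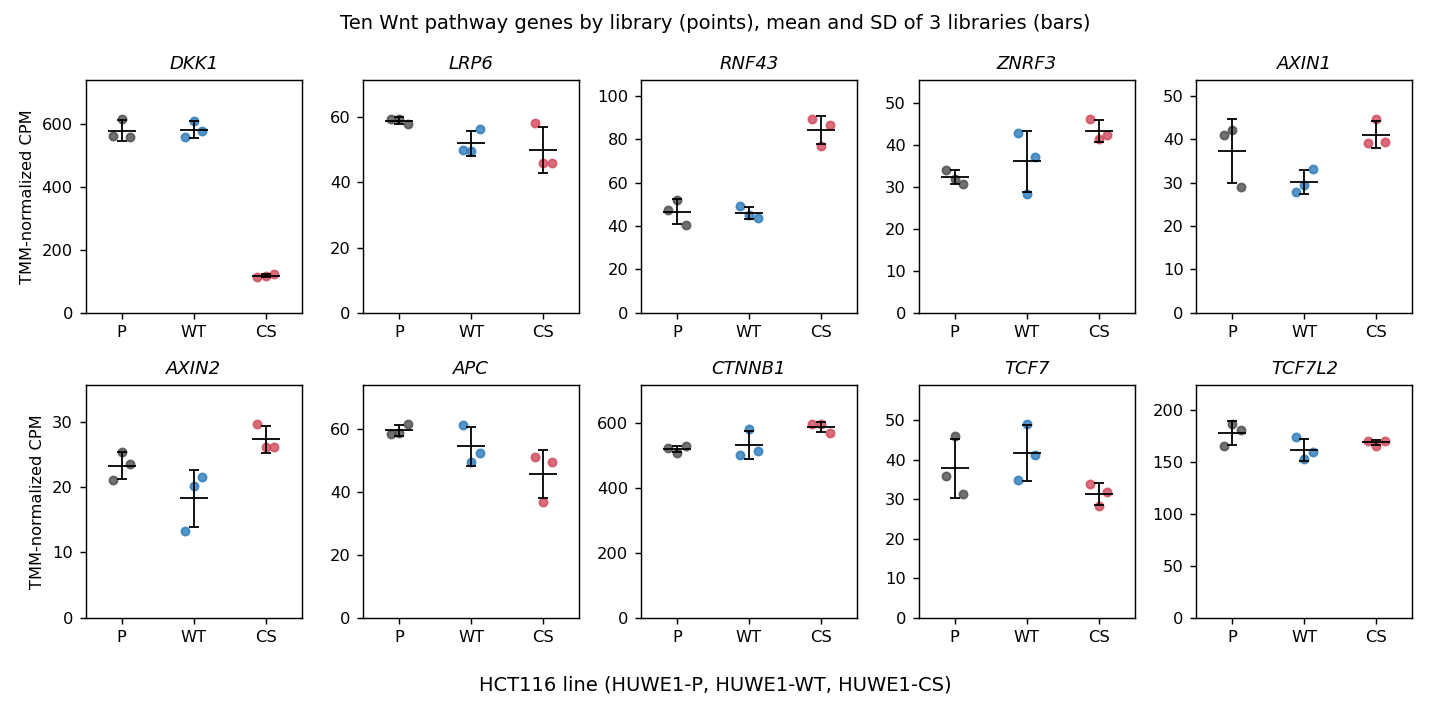
TMM-normalized CPM (vertical axis, from 0) of the 10 genes in the 3 libraries of each line (points, horizontal axis: P, HUWE1-P; WT, HUWE1-WT; CS, HUWE1-CS), with the mean and SD of 3 libraries in black. DKK1 had means of 579 and 582 CPM in the control lines and of 118 CPM in HUWE1-CS cells, RNF43 was higher in all HUWE1-CS libraries, and the libraries of most other members overlapped.

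Relative to transcript length (the canonical GENCODE transcript of each gene), DKK1 had the highest level of the members in HUWE1-P cells, with 321 ± 18.2 CPM per kb (SD, n = 3). CTNNB1 followed with 142 ± 2.63 and TCF7L2 with 43.7 ± 2.74 CPM per kb, and these 3 genes lay apart from each other in every library. TCF7, RNF43 and AXIN1 formed a group between 10.1 and 11.5 CPM per kb whose libraries overlapped. LRP6, APC, AXIN2 and ZNRF3, with means from 4.70 to 5.75 CPM per kb, also overlapped from each to the next. No other Wnt gene of the 96 exceeded DKK1 per length in HUWE1-P cells. In HUWE1-CS cells, CTNNB1 was first with 161 ± 4.35 CPM per kb, DKK1 second with 65.3 ± 2.54, and RNF43, with 18.7 ± 1.44, followed TCF7L2. In that line 9 of the 96 genes exceeded DKK1.

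Of the 9 members other than DKK1, 1 passed the threshold between HUWE1-CS and HUWE1-P cells, RNF43, and it was higher. Among all genes tested, 17.0% were called in this comparison, 8.46% higher and 8.58% lower, so that 1 of 9 is no more than the background. The median log2 fold change of the 9 genes was 0.16, with 5 above and 4 below 0, and that of all genes was -0.01. Against HUWE1-WT cells RNF43 was again the only member called, where 15.5% of all genes were called, 7.42% higher and 8.08% lower. There the median of the 9 was 0.14, with 6 above and 3 below 0. None of the 9 was called lower in either comparison. Both comparisons use the same HUWE1-CS libraries and are not independent.

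RNF43 (Entrez identifier 54894; chromosome 17, 56431037 to 56494956) and ZNRF3 encode transmembrane ubiquitin ligases that remove Frizzled receptors from the cell surface. The level of RNF43 was 47.2, 52.2 and 40.5 CPM in the HUWE1-P libraries and 49.3, 45.3 and 43.6 CPM in the HUWE1-WT libraries. It was 89.6, 77.1 and 86.5 CPM in the HUWE1-CS libraries, all above the 6 control libraries, as those of 12.9% of all genes were. The antisense gene TSPOAP1-AS1 and an unnamed protein-coding gene on the same strand overlap RNF43 and have no row. Without a stated read assignment, their reads cannot be told apart from those of RNF43. Annotated genes also overlap LRP6, ZNRF3, AXIN2, APC, CTNNB1 and TCF7L2. RNF43 rose from 46.6 ± 5.88 to 84.4 ± 6.50 CPM (SD, n = 3) in HUWE1-CS against HUWE1-P cells, by 0.86 on the log2 scale (standard error 0.124, adjusted p = 1.66e-08, edgeR). Against HUWE1-WT cells it was 0.87 (standard error 0.125, adjusted p = 1.72e-08, edgeR). Between the control lines the log2 fold change was -0.01 (95% interval -0.29 to 0.27, adjusted p = 0.996, edgeR). RNF43 and DKK1, both TCF target genes, thus went in opposite directions in HUWE1-CS cells.

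ZNRF3 lay at 34.1, 32.0 and 30.8 CPM in the HUWE1-P libraries, at 42.9, 28.4 and 37.2 CPM in the HUWE1-WT libraries and at 46.3, 41.4 and 42.4 CPM in the HUWE1-CS libraries. The HUWE1-CS libraries were above those of HUWE1-P cells, but HUWE1-WT replicate 1 lay among them. The log2 fold change was 0.43 against HUWE1-P cells (95% interval 0.12 to 0.74, adjusted p = 0.0318, edgeR) and 0.27 against HUWE1-WT cells (-0.04 to 0.57, adjusted p = 0.210, edgeR), and neither passed the threshold. With the dependence of counts on transcript length removed from each library, ZNRF3 passed against HUWE1-P cells (0.56, adjusted p = 0.00325, edgeR). LGR4, a receptor for the R-spondins that act through these ligases, differed by 0.19 (adjusted p = 0.620, edgeR). LGR5, LGR6 and the R-spondin genes were not in the table.

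LRP6, the co-receptor that DKK1 binds, was not called in any comparison. It lay at 59.6, 59.5 and 57.8 CPM in the HUWE1-P libraries, at 49.8, 49.6 and 56.4 CPM in the HUWE1-WT libraries and at 58.2, 45.9 and 45.9 CPM in the HUWE1-CS libraries. Its log2 fold change in HUWE1-CS cells was -0.24 against HUWE1-P cells (95% interval -0.50 to 0.02, adjusted p = 0.179, edgeR) and -0.06 against HUWE1-WT cells (-0.32 to 0.21, adjusted p = 0.812, edgeR). Of the 14 receptor genes in the table, 1 (7.14%) was called against HUWE1-P cells in the mutant line, beside 17.0% of all genes. KREMEN1, which encodes a DKK1 receptor, rose from 54.4 ± 5.55 to 72.9 ± 5.34 CPM (SD, n = 3; log2 fold change 0.41, adjusted p = 0.00736, edgeR). This call was lost without HUWE1-P replicate 1 (0.36, adjusted p = 0.0462, edgeR), HUWE1-P replicate 2 (0.38, adjusted p = 0.0344, edgeR), HUWE1-CS replicate 1 (0.39, adjusted p = 0.0317, edgeR) or HUWE1-CS replicate 2 (0.38, adjusted p = 0.0340, edgeR). Against HUWE1-WT cells KREMEN1 differed by 0.27 (adjusted p = 0.0959, edgeR).

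The Frizzled receptors were represented by FZD1, FZD2, FZD3, FZD4, FZD5, FZD6 and FZD7, none of which was called in a comparison. Per length FZD6 was the highest of them in HUWE1-P cells, with 22.5 CPM per kb, and the highest receptor gene overall was PTK7, a Wnt co-receptor, with 42.7 CPM per kb. The log2 fold change of FZD7 in HUWE1-CS cells was 0.53 against HUWE1-P cells (adjusted p = 0.0173, edgeR) and 0.58 against HUWE1-WT cells (adjusted p = 0.0116, edgeR), and its HUWE1-CS libraries (32.6, 35.2 and 33.1 CPM) lay above all control libraries (17.4 to 28.6 CPM). Those of FZD1, FZD2, FZD3, FZD4, FZD5 and FZD6 ranged from -0.38 to 0.18 against HUWE1-P cells. Against HUWE1-WT cells FZD4 differed by 0.58 (adjusted p = 0.135, edgeR) and the other 5 by -0.27 to 0.19. Frizzled genes are similar in sequence, and reads can be split between them.

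Among the members of the destruction complex, AXIN1 and AXIN2 encode scaffold proteins and APC the tumor suppressor that binds β-catenin. AXIN1 lay at 41.0, 42.1 and 28.9 CPM in the HUWE1-P libraries, at 27.8, 29.4 and 33.1 CPM in the HUWE1-WT libraries and at 39.2, 44.8 and 39.5 CPM in the HUWE1-CS libraries. Its HUWE1-CS libraries were above those of HUWE1-WT cells and overlapped with those of HUWE1-P cells, and the log2 fold changes were 0.45 (adjusted p = 0.0310, edgeR) and 0.16 (adjusted p = 0.486, edgeR), respectively. AXIN2, a TCF target gene often read as a measure of the pathway, lay at 21.1, 25.3 and 23.6 CPM in the HUWE1-P libraries, at 13.3, 20.2 and 21.5 CPM in the HUWE1-WT libraries and at 29.7, 26.1 and 26.1 CPM in the HUWE1-CS libraries. The HUWE1-CS libraries exceeded all 6 control libraries by a small margin, as those of 12.9% of all genes did. The log2 fold change of AXIN2 was 0.22 against HUWE1-P cells (95% interval -0.15 to 0.59, adjusted p = 0.422, edgeR) and 0.57 against HUWE1-WT cells (0.17 to 0.96, adjusted p = 0.0263, edgeR), and neither passed the threshold. With 23 to 50 counts per library, AXIN2 has a wide interval, but a fall of the size seen in DKK1 lies outside it.

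APC lay at 58.3, 58.9 and 61.7 CPM in the HUWE1-P libraries, at 61.4, 49.6 and 52.3 CPM in the HUWE1-WT libraries and at 51.0, 36.9 and 49.4 CPM in the HUWE1-CS libraries. The HUWE1-CS libraries were below those of HUWE1-P cells and overlapped with those of HUWE1-WT cells. Its log2 fold change was -0.39 against HUWE1-P cells (95% interval -0.66 to -0.12, adjusted p = 0.0231, edgeR) and -0.25 against HUWE1-WT cells (adjusted p = 0.184, edgeR), short of the threshold. With the length trend removed it was -0.20 against HUWE1-P cells (adjusted p = 0.280, edgeR). All 17 genes listed for the destruction complex were in the table, and 0 of them were called by edgeR in any comparison, beside 17.0% of all genes in HUWE1-CS cells against HUWE1-P and 15.5% against HUWE1-WT cells. At an unadjusted p under 0.05 there were 4 in HUWE1-CS against HUWE1-P cells, 3 against HUWE1-WT cells and 1 between the control lines, where the shares of all genes were 36.1%, 35.0% and 5.54%. Across the list the log2 fold changes against HUWE1-P cells had a median of 0.02 and ranged from -0.40 to 0.49. The highest level per length in HUWE1-P cells was that of PPP2CA, a catalytic subunit of protein phosphatase 2A, with 61.3 CPM per kb.

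**Figure D2:**
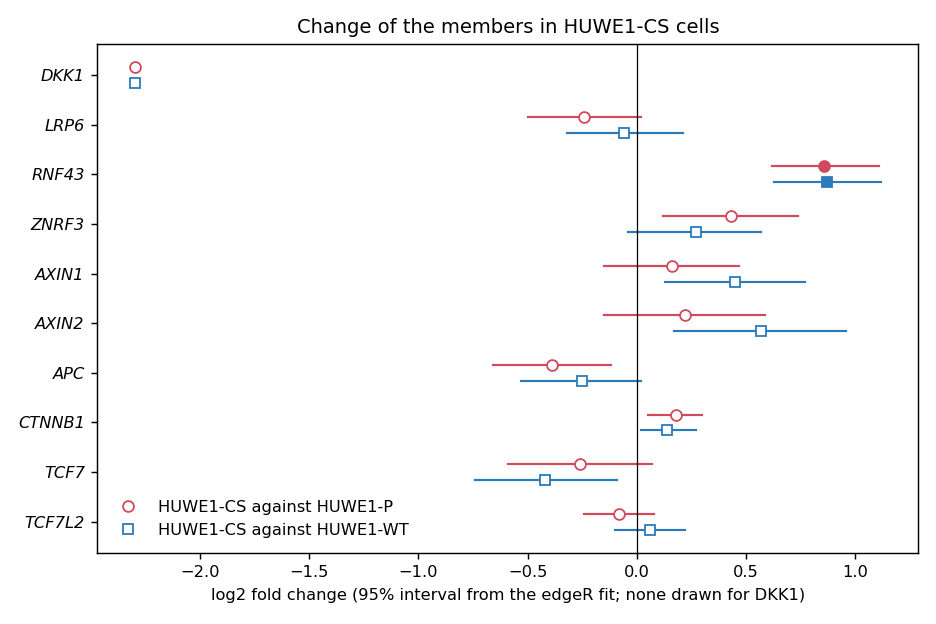
Log2 fold change (horizontal axis) of each gene in HUWE1-CS against HUWE1-P cells (red circles) and against HUWE1-WT cells (blue squares), with 95% intervals from the edgeR fit as lines. Filled symbols mark genes called at an FDR of at most 0.01, and DKK1 is drawn open and without an interval since it was not tested. DKK1 stood at -2.30 in both comparisons, RNF43 at 0.86 and 0.87, and the other members between -0.42 and 0.57.

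CTNNB1 (Entrez identifier 1499; chromosome 3, 41236232 to 41301587) encodes β-catenin. Its level was 524, 510 and 529 CPM in the HUWE1-P libraries, 503, 583 and 515 CPM in the HUWE1-WT libraries and 597, 599 and 571 CPM in the HUWE1-CS libraries. Only HUWE1-WT replicate 2 reached the range of the HUWE1-CS libraries. The log2 fold change in HUWE1-CS cells was 0.18 against HUWE1-P cells (95% interval 0.05 to 0.30, adjusted p = 0.0255, edgeR) and 0.14 against HUWE1-WT cells (0.02 to 0.27, adjusted p = 0.0852, edgeR), and neither passed. Against HUWE1-P cells CTNNB1 passed with a GC trend removed (0.23, adjusted p = 0.00260, edgeR) and with a length trend removed (0.22, adjusted p = 0.00160, edgeR). With the length trend removed, it also passed against HUWE1-WT cells (0.19, adjusted p = 0.00777, edgeR).

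TCF7 and TCF7L2 encode the TCF factors through which β-catenin acts. TCF7, itself a TCF target, lay at 36.0, 46.0 and 31.3 CPM in the HUWE1-P libraries, at 34.8, 49.1 and 41.3 CPM in the HUWE1-WT libraries and at 33.8, 28.4 and 31.9 CPM in the HUWE1-CS libraries. Its log2 fold change was -0.26 against HUWE1-P cells (95% interval -0.59 to 0.07, adjusted p = 0.256, edgeR) and -0.42 against HUWE1-WT cells (-0.74 to -0.09, adjusted p = 0.0492, edgeR). SKP1, on the opposite strand, overlaps TCF7 and is in the table. TCF7L2 lay at 166, 187 and 181 CPM in the HUWE1-P libraries, at 174, 153 and 160 CPM in the HUWE1-WT libraries and at 170, 166 and 170 CPM in the HUWE1-CS libraries. The 3 lines overlapped, and the log2 fold change was -0.08 against HUWE1-P cells (95% interval -0.24 to 0.08, adjusted p = 0.508, edgeR) and 0.06 against HUWE1-WT cells (adjusted p = 0.653, edgeR).

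Of the 17 genes listed for β-catenin and its nuclear partners, 3 were called higher and 1 lower in HUWE1-CS against HUWE1-P cells (23.5%, beside 17.0% of all genes). Per length CTNNB1 (142 CPM per kb) and TLE5 (139 CPM per kb) were the highest in HUWE1-P cells. In HUWE1-CS cells their means were 161 and 167 CPM per kb, respectively. The lower gene was BCL9L, a coactivator that binds β-catenin, which fell from 175 ± 14 to 130 ± 14.5 CPM (SD, n = 3; log2 fold change -0.44, adjusted p = 4.51e-05, edgeR). With the length trend removed it differed by -0.29 (adjusted p = 0.00590, edgeR). The higher genes were TLE1, CTNNBIP1 and TLE5. TLE1, a Groucho-type corepressor, rose from 19.1 ± 4.93 to 33.1 ± 0.840 CPM (SD, n = 3; 0.78, adjusted p = 7.98e-04, edgeR). CTNNBIP1, which binds β-catenin and blocks its contact with TCF factors, rose from 17.5 ± 4.84 to 30.9 ± 3.49 CPM (0.79, adjusted p = 0.00106, edgeR). TLE5, a short relative of TLE1, rose from 251 ± 6.66 to 300 ± 14 CPM (0.26, adjusted p = 0.00213, edgeR). The call of TLE1 was lost without HUWE1-P replicate 1 (0.63, adjusted p = 0.0175, edgeR), as was that of CTNNBIP1 (0.63, adjusted p = 0.0214, edgeR), which was also lost without HUWE1-CS replicate 3 (0.72, adjusted p = 0.0109, edgeR). That of TLE5 was lost without HUWE1-P replicate 3 (0.24, adjusted p = 0.0233, edgeR) or HUWE1-CS replicate 2 (0.24, adjusted p = 0.0128, edgeR) or with the length trend removed (0.20, adjusted p = 0.0157, edgeR). Against HUWE1-WT cells, TLE1 (0.77, adjusted p = 0.00110, edgeR) and BCL9L (-0.29, adjusted p = 0.00953, edgeR) were called and CTNNBIP1 and TLE5 were not. Here TLE1 was lost without HUWE1-WT replicate 1 (0.63, adjusted p = 0.0207, edgeR), and the call of BCL9L was lost without HUWE1-P replicate 1, HUWE1-WT replicate 1 or 3 or HUWE1-CS replicate 1 or 3 (adjusted p from 0.0122 to 0.118, edgeR). It was also lost with the length trend removed (-0.19, adjusted p = 0.105, edgeR), with DESeq2 (adjusted p = 0.0693) and in 4 further fits, in 11 of 21 alternatives in all. LEF1, PYGO1 and TLE4 were not in the table.

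Of the TCF target genes other than DKK1, 22 were in the table, and 3 were called higher and 3 lower in HUWE1-CS against HUWE1-P cells (27.3%, beside 17.0% of all genes). Their median log2 fold change was -0.08, beside -0.01 over all genes. Against HUWE1-WT cells, 3 were called higher and 4 lower (31.8%, beside 15.5% of all genes), with a median of -0.15, beside 0 over all genes. The 3 lower genes were CCND1, BMP4 and AMOTL2. CCND1, which encodes cyclin D1, had 888, 825 and 853 CPM in the HUWE1-P libraries, 863, 824 and 888 CPM in the HUWE1-WT libraries and 639, 643 and 617 CPM in the HUWE1-CS libraries, a log2 fold change of -0.43 against HUWE1-P cells (adjusted p = 2.70e-09, edgeR) and of -0.44 against HUWE1-WT cells (adjusted p = 2.11e-09, edgeR). It had the highest level per length of these genes in HUWE1-P cells after DKK1, with 202 CPM per kb. BMP4, a ligand of the BMP pathway, had 371, 400 and 359 CPM in the HUWE1-P libraries and 281, 271 and 254 CPM in the HUWE1-CS libraries (-0.49, adjusted p = 9.11e-09, edgeR). AMOTL2, an angiomotin family gene, fell from 69.2 ± 4.39 to 41.0 ± 3.23 CPM (SD, n = 3; -0.76, adjusted p = 2.33e-06, edgeR). For each of these 3 genes the HUWE1-CS libraries lay below all 6 control libraries, as those of 13.4% of all genes did, and each was called with any library left out. The ratio of means between HUWE1-P and HUWE1-CS cells was 1.35 for CCND1, 1.40 for BMP4 and 1.69 for AMOTL2, against 4.91 for DKK1.

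The higher TCF target genes were RNF43, SOX9 and SOX4. SOX9, a transcription factor of crypt progenitor cells, had 104, 91.5 and 91.5 CPM in the HUWE1-P libraries, 110, 105 and 97.7 CPM in the HUWE1-WT libraries and 139, 138 and 144 CPM in the HUWE1-CS libraries, with no overlap. Its log2 fold change was 0.56 against HUWE1-P cells (adjusted p = 1.04e-06, edgeR) and 0.43 against HUWE1-WT cells (adjusted p = 1.69e-04, edgeR). SOX4 had 139, 110 and 119 CPM in the HUWE1-P libraries and 135, 194 and 144 CPM in the HUWE1-CS libraries. The groups overlapped, and the log2 fold change of 0.37 (adjusted p = 0.00162, edgeR) rested on HUWE1-CS replicate 2, without which it was 0.20 (adjusted p = 0.149, edgeR). The call of SOX4 was also lost without HUWE1-P replicate 2 (0.30, adjusted p = 0.0242, edgeR) or HUWE1-P replicate 3 (0.35, adjusted p = 0.0141, edgeR). Against HUWE1-WT cells SOX4 was called (0.41, adjusted p = 5.63e-04, edgeR), but not without HUWE1-CS replicate 2 (0.24, adjusted p = 0.0821, edgeR). MYC was called against HUWE1-WT cells only (-0.31, adjusted p = 1.36e-04, edgeR). Against HUWE1-P cells it differed by -0.16 (adjusted p = 0.0679, edgeR), although its HUWE1-CS libraries (432, 415 and 390 CPM) lay below all 6 control libraries (440 to 546 CPM). NOTUM, like DKK1 a secreted feedback inhibitor, lay between 10.1 and 12.3 CPM in the HUWE1-P libraries and between 7.94 and 13.6 CPM in the HUWE1-CS libraries and differed by -0.12 (95% interval -0.68 to 0.45, adjusted p = 0.809, edgeR). LGR5, LEF1, SP5, ASCL2 and APCDD1 were not in the table.

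**Figure D3:**
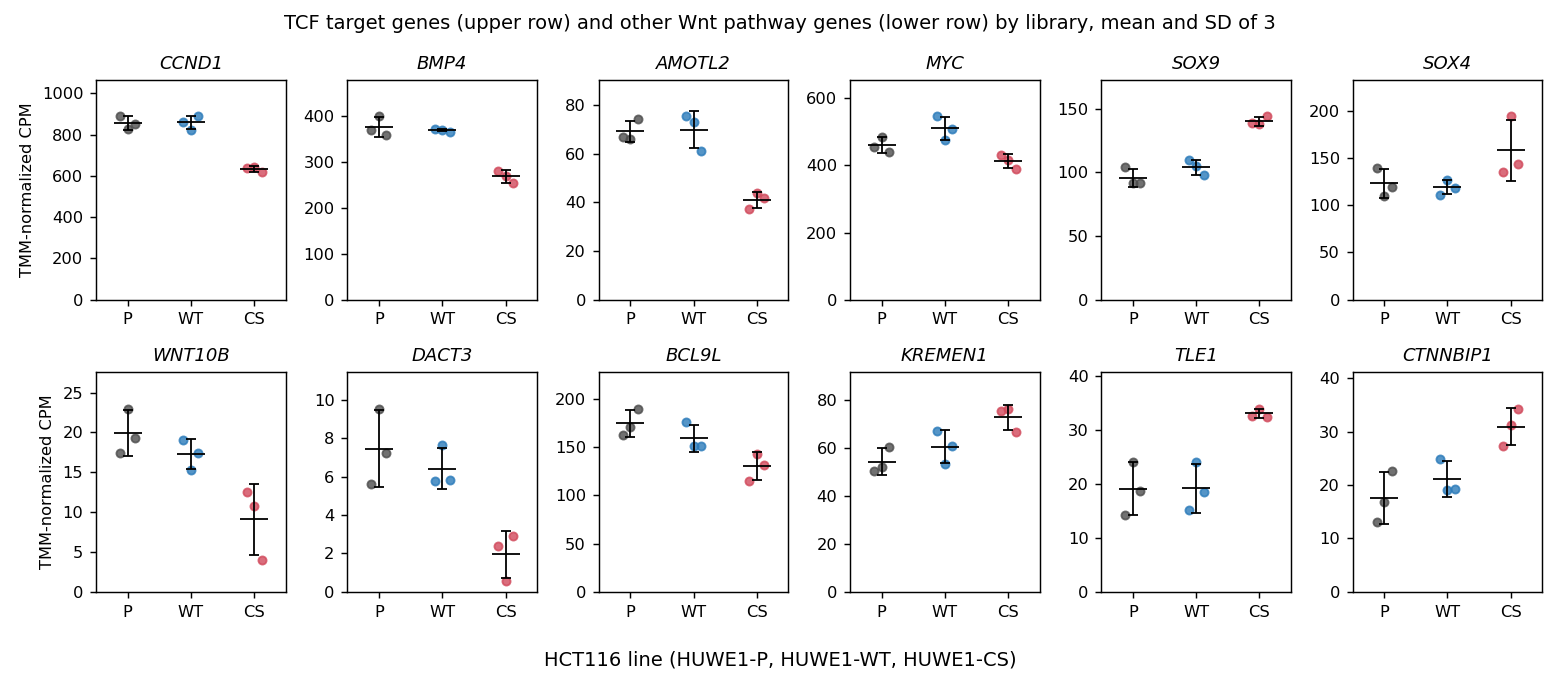
TMM-normalized CPM (vertical axis, from 0) by line (horizontal axis) for 6 TCF target genes (upper row) and 6 other Wnt pathway genes (lower row), with each of the 3 libraries as a point and mean and SD in black. CCND1, BMP4, AMOTL2 and MYC lay lower and SOX9 higher in all 3 HUWE1-CS libraries than in all 6 controls, and the high SOX4 mean came with a library at 194 CPM.

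The Wnt ligands were represented by WNT7B, WNT10B and WNT16, out of 19 WNT genes. WNT10B was called lower in HUWE1-CS cells, whose libraries held 21, 19 and 7 counts. There were 28, 41 and 40 counts in those of HUWE1-P cells and 33, 28 and 30 counts in those of HUWE1-WT cells. Its log2 fold change was -1.13 against HUWE1-P cells (standard error 0.262, adjusted p = 4.49e-04, edgeR) and -0.92 against HUWE1-WT cells (standard error 0.272, adjusted p = 0.00735, edgeR). HUWE1-CS replicate 3 held the lowest count, and without it the log2 fold changes were -0.77 (adjusted p = 0.0283, edgeR) and -0.56 (adjusted p = 0.151, edgeR), and neither passed. Against HUWE1-WT cells the call was also lost without HUWE1-WT replicate 1 (-0.84, adjusted p = 0.0351, edgeR), HUWE1-WT replicate 3 (-0.91, adjusted p = 0.0214, edgeR) or HUWE1-CS replicate 2 (-1.06, adjusted p = 0.0106, edgeR). WNT7B differed by -0.84 (adjusted p = 0.0419, edgeR), from 15, 25 and 21 to 9, 12 and 11 counts. WNT16 had the highest level of the ligands, 34.1 CPM per kb in HUWE1-P cells, and differed by -0.02 (95% interval -0.22 to 0.17, adjusted p = 0.898, edgeR). WLS, the carrier that brings Wnt proteins to the cell surface, was called higher against HUWE1-WT cells (0.45, adjusted p = 0.00462, edgeR) and not against HUWE1-P cells (0.30, adjusted p = 0.0591, edgeR). Its call was lost without HUWE1-WT replicate 1 (0.36, adjusted p = 0.0548, edgeR), HUWE1-WT replicate 3 (0.47, adjusted p = 0.0145, edgeR) or HUWE1-CS replicate 2 (0.38, adjusted p = 0.0445, edgeR). The DKK1 relatives DKK2, DKK3 and DKK4 and the secreted Frizzled-related genes SFRP1, SFRP2, SFRP4 and SFRP5 were not in the table.

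The Dishevelled proteins pass the signal from the receptor to the destruction complex. Of 7 genes for them and their partners, 1 was called (14.3%, beside 17.0% of all genes against HUWE1-P and 15.5% against HUWE1-WT cells), DACT3, which encodes a Dishevelled-binding antagonist and is expressed at a low level. Its counts were 9, 17 and 15 for HUWE1-P, 10, 14 and 10 for HUWE1-WT and 4, 1 and 5 for HUWE1-CS. HUWE1-CS replicate 2 thus lay below the floor of 3 counts. DACT3 was called lower against HUWE1-P cells (-1.92, standard error 0.482, adjusted p = 0.00125, edgeR) and against HUWE1-WT cells (-1.70, standard error 0.502, adjusted p = 0.00710, edgeR). Against HUWE1-P cells the call was lost without HUWE1-P replicate 2 (-1.71, adjusted p = 0.0137, edgeR) or HUWE1-CS replicate 2 (-1.47, adjusted p = 0.0273, edgeR). Against HUWE1-WT cells it was lost without any of the HUWE1-WT replicates 1, 2 and 3 or HUWE1-CS replicate 1 or 2 (adjusted p from 0.0113 to 0.0796, edgeR). DVL1, the highest of the list per length (66.0 CPM per kb in HUWE1-P cells), DVL2 and DVL3 were not called, with log2 fold changes against HUWE1-P cells of -0.20, 0.08 and 0.20.

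Planar polarity genes serve β-catenin-independent Wnt signaling. Of the 8 in the table, 1 was called against HUWE1-P cells (12.5%, beside 17.0% of all genes) and 0 against HUWE1-WT cells (beside 15.5%). CELSR1 was called lower against HUWE1-P cells (-0.51, adjusted p = 0.00271, edgeR) and not against HUWE1-WT cells (-0.37, adjusted p = 0.0484, edgeR). With the length trend removed it was not called against HUWE1-P cells (-0.31, adjusted p = 0.0778, edgeR), nor without HUWE1-P replicate 1 or 3 or HUWE1-CS replicate 2 or 3 (adjusted p from 0.0102 to 0.0301, edgeR). SCRIB was the highest of the list per length in HUWE1-P cells, with 57.6 CPM per kb, and differed by -0.03 (adjusted p = 0.809, edgeR). Of 8 genes for junctional cadherins, catenins and desmosomal proteins, 2 cadherins were called higher and PKP3 lower in both comparisons (37.5%, beside 17.0% and 15.5% of all genes). E-cadherin (CDH1) had 59.6, 70.2 and 67.0 CPM in the HUWE1-P libraries, 72.4, 57.8 and 73.8 CPM in the HUWE1-WT libraries and 91.4, 90.7 and 103 CPM in the HUWE1-CS libraries, a log2 fold change of 0.53 against HUWE1-P cells (adjusted p = 1.13e-04, edgeR). Against HUWE1-WT cells it was 0.48 (adjusted p = 4.69e-04, edgeR), and the call was lost without HUWE1-WT replicate 2 (0.38, adjusted p = 0.0160, edgeR). P-cadherin (CDH3) rose from 183 ± 9.58 to 246 ± 14.6 CPM (SD, n = 3; 0.44, adjusted p = 3.01e-06, edgeR). PKP3, a desmosomal plakophilin, fell by 0.29 on the log2 scale against HUWE1-P cells (adjusted p = 0.00882, edgeR), a call lost without any of the HUWE1-P replicates 1, 2 and 3, HUWE1-WT replicate 2 or 3 or HUWE1-CS replicate 1 or 3 (adjusted p from 0.0112 to 0.0586, edgeR). Against HUWE1-WT cells it fell by 0.30 (adjusted p = 0.00693, edgeR), a call lost without HUWE1-WT replicate 2 or 3 or HUWE1-CS replicate 1 or 3 (adjusted p from 0.0121 to 0.0671, edgeR). CTNNA1, which encodes the α-catenin that binds β-catenin at junctions, was the highest of the list per length (108 CPM per kb in HUWE1-P cells) and differed by -0.10 (adjusted p = 0.264, edgeR).

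**Figure D4:**
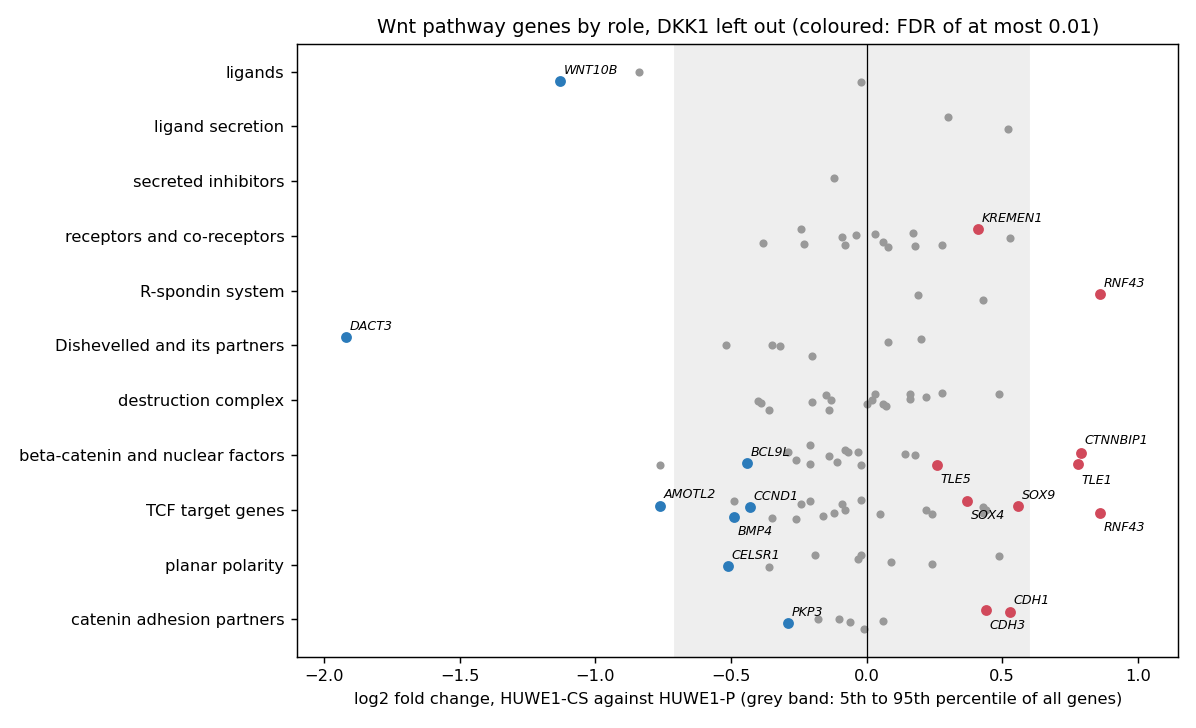
Log2 fold change in HUWE1-CS against HUWE1-P cells (horizontal axis) of the Wnt pathway genes in the table, DKK1 left out, by role (vertical axis), with 1 point per gene and list, coloured red (higher) or blue (lower) where called at an FDR of at most 0.01 and grey otherwise, and with a grey band between the lower and upper percentile of all genes named on the axis. The 9 higher and 8 lower genes were spread over the lists on both sides of 0, and the destruction complex held 0 called genes.

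Over all the lists together, DKK1 left out, 17 of 96 genes (17.7%) were called against HUWE1-P cells in the mutant line, 9 higher and 8 lower, beside 17.0% of all genes. Against HUWE1-WT cells 15 of 96 (15.6%) were called, 7 higher and 8 lower, beside 15.5% of all genes. The median log2 fold change was -0.03 and -0.06, beside -0.01 and 0 over all genes. For 27 of the 96 genes no HUWE1-CS library overlapped with the 6 control libraries, 13 above and 14 below, as was the case for 26.3% of all genes. Between the control lines edgeR called 0 of the 96 genes, where 0.0617% of all genes were called (0.00881% higher and 0.0529% lower), and 3 had an unadjusted p under 0.05 (1 with DESeq2). The log2 fold changes of the 9 members other than DKK1 between the control lines ranged from -0.35 for AXIN2 to 0.16 for TCF7 and ZNRF3. For LRP6 alone among them the HUWE1-WT libraries did not overlap with the HUWE1-P libraries (-0.18, adjusted p = 0.939, edgeR), beside 10.7% of all genes.

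The levels of DKK1 over the 9 libraries were compared with those of every other gene by the root mean square difference of log2 CPM, each gene centred on its mean. The most similar genes were GJC1 (0.153), a connexin, KATNAL1 (0.156), a katanin subunit, ERRFI1 (0.210), an inhibitor of EGFR, CYP24A1 (0.213), the vitamin D 24-hydroxylase, and PALLD (0.215), an actin-binding protein. None of these belongs to the Wnt lists. GJC1 had 112 ± 2.39, 97.9 ± 8.58 and 22.6 ± 2.53 CPM (SD, n = 3) in parental, HUWE1-WT and HUWE1-CS cells. CYP24A1 had 159 ± 10.5, 180 ± 7.94 and 25.5 ± 1.52 CPM. Since the measure follows the fall in HUWE1-CS cells, these values are a description. The Wnt gene most similar to DKK1 was DACT3, at position 74 of all genes with 0.524, and WNT10B followed at position 256 with 0.709. DACT3 held 4, 1 and 5 counts in the HUWE1-CS libraries, around the floor of 3 counts, so its position rests on few reads.

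**Figure D5:**
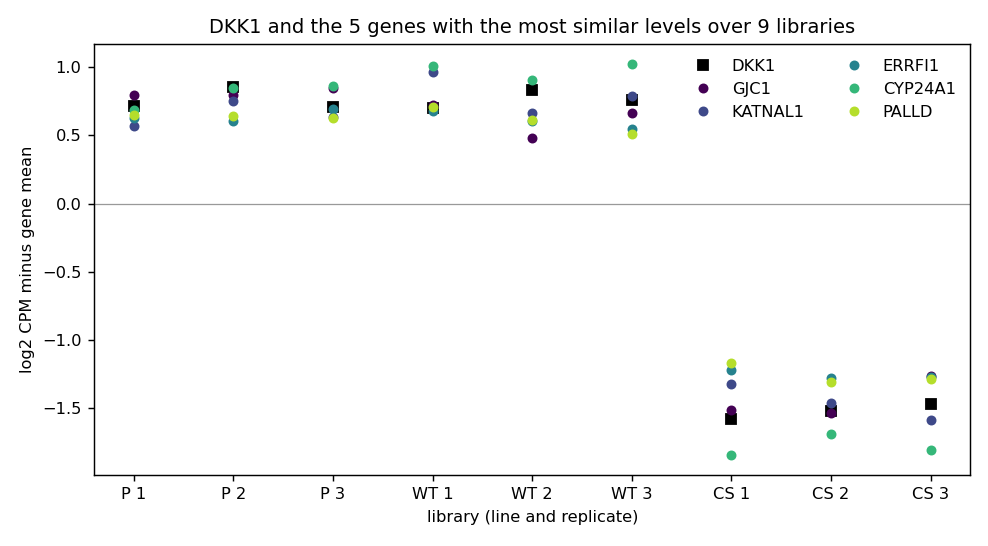
Log2 CPM minus the mean of the gene (vertical axis) in each of the 9 libraries (horizontal axis) for DKK1 (black squares) and the 5 genes closest to it (circles). All 6 genes lay above their mean in the 6 control libraries and below it in the 3 HUWE1-CS libraries.

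The nearest genes with a row on either side of DKK1 were CSTF2T, 614.7 kb away at the lower coordinate, and ZWINT, 4039.2 kb away. CSTF2T, which encodes a cleavage stimulation factor subunit, had 46.6, 41.0 and 37.6 CPM in the HUWE1-P libraries and 49.3, 47.1 and 45.3 CPM in the HUWE1-CS libraries (log2 fold change 0.19, adjusted p = 0.379, edgeR). ZWINT, a kinetochore gene, differed by -0.14 against HUWE1-P cells (adjusted p = 0.271, edgeR) and was called lower against HUWE1-WT cells (-0.30, adjusted p = 0.00821, edgeR). DKK1 was chosen by its fall, so its difference is no measure for these genes, and an effect on the region was not tested.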

How the data were processed

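Polyadenylated RNA was converted to libraries with the NEBNext Ultra II kit and sequenced with single-end reads. Per the labels and the study's methods, the authors demultiplexed with bcl2fastq 2.20, trimmed with Skewer and mapped to hg19 with STAR 2.5.4, and deposited counts per gene by Entrez identifier, without normalization. How reads were assigned to genes (program, gene models, strand) and how low genes were filtered is not given in the sources used here. The smallest total of a gene was 41 counts. The authors' tables of their own edgeR 3.26.8 comparisons (fold changes, p-values, FDR) were not used. Genes without a symbol (147, with 0.505% of the counts) were kept.

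Counts were fitted with edgeR 4.0.16 in R 4.3.3 (TMM, glmQLFit with legacy = TRUE and not robust, 9 libraries, line as the only term, no filter). The common dispersion was 0.00228. P-values were adjusted over all 11350 genes. Standard errors are the log2 fold change over the square root of F. Positions, canonical transcript lengths and GC content came from GENCODE v44 on GRCh37 (10827 genes, 95.4%), and promoter windows from RefSeq. Deviations of same-numbered libraries correlated between -0.0195 and 0.0579, and those of differently numbered ones between -0.0653 and 0.0333. Such values cannot show whether libraries with the same number shared a batch. Replicates differed by more than sampling noise (chi-square per degree of freedom 1.16 to 1.65). The members, lists and naming rule (members, the 3 smallest p-values per list and direction, 1 further gene called in another comparison, the highest gene per length, WNT, FZD, DKK and SFRP genes, the 5 genes most similar to DKK1 and its neighbours) were chosen with earlier results of these data known. In simulated data for HUWE1-CS against HUWE1-P cells (11350 genes), 83.3% of genes changed by 1 and 39.3% of those changed by 0.5 on the log2 scale were called, with 4 false calls of 372. All simulated sets together thus gave 372 calls, against 1934 in the data. Fewer genes were changed in them, and these rates need not hold for the data. Alternatives were DESeq2 1.42.0, limma-voom (limma 3.58.1), the newer and the robust edgeR fits, RLE factors, total counts, at least 10 counts in every library, only the 2 lines compared, a replicate block, length and GC offsets, other thresholds, and each library left out.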

Additional observations from a re-analysis of the deposited data

How the results depend on the processing

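The log2 fold change of DKK1 in HUWE1-CS cells was -2.36 to -2.24 against HUWE1-P and -2.35 to -2.25 against HUWE1-WT cells over the alternatives. With each library left out it was -2.32 to -2.25 and -2.33 to -2.26. DKK1 was chosen by its fall in these same libraries, so the ranges describe the fits and do not test the fall. Of the 9 other members, RNF43 was called in both HUWE1-CS comparisons in every fit. Against HUWE1-P cells, 2 members were called with a GC offset, 2 with the replicate block and a GC offset, 3 with a length offset and 4 at an FDR of 0.05, where APC was lower. Against HUWE1-WT cells, 2 were called with a length offset and 4 at an FDR of 0.05, where TCF7 was lower. All genes were called at shares of 16.8% to 18.1% with these offsets against HUWE1-P and 15.8% with the length offset against HUWE1-WT cells. With each library left out the count stayed at 1 to 1 in both. Of the 96 Wnt genes, DESeq2 called 9 and 8 in place of 17 and 15 (HUWE1-P and HUWE1-WT, respectively), which is 9.38% and 8.33%, beside 9.59% and 8.79% of all genes. An FDR of 0.05 gave 32 and 27 (33.3% and 28.1%, beside 26.4% and 24.4%). At an FDR of 0.01, also asking for log2 fold changes beyond ±0.5 left 9 and 5 (9.38% and 5.21%, beside 10.1% and 9.37%). DESeq2 did not call KREMEN1, DACT3, CTNNBIP1, TLE1, TLE5, SOX4, CELSR1 or PKP3 against HUWE1-P cells. Against HUWE1-WT cells it did not call WNT10B, WLS, DACT3, BCL9L, TLE1, SOX4 or PKP3. The cause was not tested. With each library left out, 12 to 17 and 10 to 15 genes were called. Between the control lines 0 of the Wnt genes were called in any of these fits, where 7 of all genes were called in the main fit. A fit with the replicate block gave 17 and 15 Wnt genes, as without it. Over all genes it called 2021 and 1835, in place of 1934 and 1759. Of the 5 genes most similar to DKK1, 4 remained with a prior count of 0.5. AXIN2, with 23 to 50 counts per library, was not called at an FDR of 0.01 in any fit, but is among the 4 members at 0.05 against HUWE1-WT cells.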
